A study of Homo sapiens with 9 samples.

Results

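The 39 genes described here belong to the integrated stress response, the unfolded protein response and the cytosolic aminoacyl-tRNA synthetases. They were taken by name from the transcript count table, with 1 transcript per gene, the one with the highest total count over the 9 libraries. All 39 were found among the 20878 genes of that table, and all 39 passed the filter on low counts. Polyadenylated RNA had been sequenced from SW480, a human colorectal cancer line with defective APC, and from 2 derived lines. The one called CONTROL (R38.7) carried the empty pEF vector. The line called APC (D2.15) carried pEF-mycAPC, which supplies a myc-tagged form of APC, the scaffold protein that lets beta-catenin be degraded. The parental line was called SW480.

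All 3 lines were kept in RPMI with thioglycerol, hydrocortisone, insulin, foetal calf serum and penicillin/streptomycin. CONTROL and APC also received G418 at 1.5 mg/ml, and SW480 did not. RNA was taken 72 h after plating, from 3 plates per line. Fewer APC cells were plated, in the ratio of 2 to 3.35 for each of the other lines. Each derived group is 1 cell line, and the plates of a line were parallel cultures, so the p-values cover the spread from plate to plate only, which may be technical. In CONTROL against SW480 the vector, G418 and the choice of line cannot be told apart. In APC against CONTROL the construct, the line and the plating number cannot be told apart. In APC against SW480 the construct with its vector, G418, the choice of line and the plating number cannot be told apart.

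Cells answer several kinds of stress by phosphorylating the translation initiation factor eIF2, through the kinases PERK, GCN2, PKR and HRI. General translation then falls while the transcription factor ATF4 is made more efficiently, and ATF4, with C/EBP partners, induces genes for amino acid synthesis and uptake, for tRNA charging and for feedback on the response itself. Misfolded protein in the endoplasmic reticulum (ER) activates PERK and 2 further sensors, IRE1, which splices XBP1 mRNA, and ATF6, and these induce chaperones and degradation factors of the ER. ATF4 and XBP1 are controlled largely after transcription, by translation and by splicing, so their mRNA levels show only part of their regulation.

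Promoter sequence is shown first, because the response elements of the pathway are short and well known. A RefSeq table of promoters (GRCh38.p14, 250 bases before to 50 bases after each gene's start, 300 bases in all) held 35 of the 39 genes. It was searched on both strands for 4 elements. These were the C/EBP-ATF response element bound by ATF4 with C/EBP partners (CARE, TGATGNAA), the ER stress element (ERSE, CCAAT and CCACG with 9 bases between them), ERSE-II (ATTGG, any base, CCACG), and the XBP1 and ATF6 element UPRE (TGACGTGG). No match overlapped another. CARE was found in 11 of the 35 promoters (31.4%): CHAC1, ASNS, SLC3A2, SLC7A1, HERPUD1, AARS, MARS, NARS, TARS, CARS and IARS. It was found in 3.62% of all 35116 promoters of the table and in 1.57% of the 11153 promoters of genes tested here. ERSE was found in XBP1, HSPA5 and HSP90B1 (8.57%, against 0.0769% of all promoters and 0.126% of those of tested genes). ERSE-II was found in HERPUD1 and SDF2L1 (5.71%, against 0.0541% and 0.108%). UPRE was found in 0 of the 35 and in 0.729% of all promoters. A match is a stretch of letters and not a shown binding site.

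The following windows, 5′ to 3′ on the strand of the gene, show the elements as they stand in genes of different roles. Capitals mark the bases of the motif that are fixed. In CHAC1, MARS and SLC3A2 CARE lies on the opposite strand. The CARE windows are those of CHAC1 (chr15:40953222-40953309, + strand), ASNS (chr7:97872429-97872516, - strand), MARS (chr12:57488024-57488071, + strand, ending 4 bases past the start) and SLC3A2 (chr11:62881726-62881748, + strand, 28 to 50 bases past the start). SDF2L1 (chr22:21642074-21642164, + strand) carries ERSE-II on the opposite strand. HSPA5 (chr9:125241351-125241449, - strand) and XBP1 (chr22:28800570-28800661, - strand) carry ERSE, and these 2 windows were added after their values were seen.
CHAC1: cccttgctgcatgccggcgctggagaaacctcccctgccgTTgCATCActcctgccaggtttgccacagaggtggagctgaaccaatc
ASNS: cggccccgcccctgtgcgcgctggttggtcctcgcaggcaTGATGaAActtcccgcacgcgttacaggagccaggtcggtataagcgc
MARS: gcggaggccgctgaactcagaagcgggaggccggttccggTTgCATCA
SLC3A2: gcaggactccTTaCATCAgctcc
SDF2L1: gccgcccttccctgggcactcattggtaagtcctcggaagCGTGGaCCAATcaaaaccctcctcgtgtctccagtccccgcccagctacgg
HSPA5: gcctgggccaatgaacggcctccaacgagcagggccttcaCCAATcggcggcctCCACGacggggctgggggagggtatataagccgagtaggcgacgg
XBP1: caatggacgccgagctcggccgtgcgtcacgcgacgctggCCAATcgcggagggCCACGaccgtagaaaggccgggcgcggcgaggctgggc
The CARE match begins 209 bases upstream of the start in CHAC1, 68 in ASNS and 4 in MARS, and the ERSE match begins 66 bases upstream in HSPA5 and 52 in XBP1.

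Total counts ranged from 16456738 (CONTROL replicate 2) to 19358025 (CONTROL replicate 3). Without TMM factors, 3 counts were thus worth 0.155 to 0.182 CPM. CPM is the count scaled to library size, in all other values with TMM factors. These values are used below, with the SD over 3 libraries, and log2 fold changes from edgeR carry a standard error. APC mRNA, the check of the construct, stood at 46.6, 49.6 and 51.5 CPM in SW480, 48.1, 46.3 and 49.4 CPM in CONTROL and 149.6, 146 and 139.7 CPM in the APC line. The epithelial markers EPCAM, KRT8, KRT18, KRT19, CDH1 and VIL1 summed to 0.554% to 0.625% of counts in every library, most of them from KRT8 and KRT18. The others differed between the lines. EPCAM had 904 to 941 counts per library in SW480, 662 to 842 in CONTROL and 6453 to 6919 in the APC line, CDH1 had 118 to 151, 113 to 186 and 2256 to 2360, and VIL1 had 4 to 8, 3 to 11 and 78 to 85. KRT19 had 13352 to 15794 counts in SW480, 6198 to 7031 in CONTROL and 10381 to 12546 in the APC line. Markers of other cells were low. Of the leukocyte markers, CD14 had 23 to 26 counts per library in SW480, 9 to 14 in CONTROL and 21 to 28 in the APC line. LYZ had 13 to 18, 2 to 7 and 2 to 7. HBA1, a haemoglobin gene and not a leukocyte marker, had 48 to 51, 24 to 40 and 4 to 6 counts. The 6 fibroblast markers summed to 244 to 261, 177 to 238 and 202 to 239 counts, nearly all of them COL1A1, and the 6 endothelial markers to 13 to 16, 20 to 23 and 24 to 28 counts. PTPRC, COL3A1 and DCN had no row in the count table, and CD3E, CDH5, LUM, PDGFRA and TEK had at most 3 counts in any library. Whether these differences between the lines have a part in the results was not tested. These are bulk libraries, in which fewer cells expressing a gene and less RNA per cell cannot be told apart.

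Most of the 39 genes were higher in CONTROL than in SW480. 31 rose and 1 fell, and 7 did not pass the test (edgeR, Benjamini-Hochberg adjusted p under 0.05). Over all 14255 genes tested, 25.3% were called higher and 24.7% lower (50% in either direction). The median log2 fold change of the 39 was 0.37, against -0.01 over all genes. 13 of the 39 rose by more than 1.5-fold and 0 fell by as much, where 4.01% and 7.57% of all genes did. The count of genes that fell was 3 without SW480 replicate 3 and 2 without APC replicate 1 or APC replicate 3. The 3 CONTROL libraries lay above the 3 SW480 libraries in 31 genes (28.5% of all genes) and below them in 2 (28.2%).

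Most of the 39 were in turn lower in the APC line than in CONTROL. 8 were higher, 26 lower and 5 not called, against 34.8% higher and 35.4% lower of all genes (70.2% in either direction). The median was -0.23, against -0.01 over all genes, and 13 fell and 4 rose by more than 1.5-fold (15.8% and 14.8% of all genes). Libraries did not overlap in 28 genes that were lower in the APC line (37.1% of all genes) and 8 that were higher (36.3%). Against the parental line the APC line showed no prevailing direction, with 18 higher, 17 lower and 4 not called. All genes gave 35.6% and 36.9% (72.5% in either direction), and the medians were 0.05 and -0.01. Here 4 of the 39 rose and 5 fell by more than 1.5-fold (14% and 18.1% of all genes), and the APC libraries lay above those of SW480 in 18 genes (35.9%) and below in 16 (37.2%). Each pair of these comparisons shares 3 libraries, so a high CONTROL value enters both of its comparisons, and their counts are not independent of each other.

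**Figure D1:**
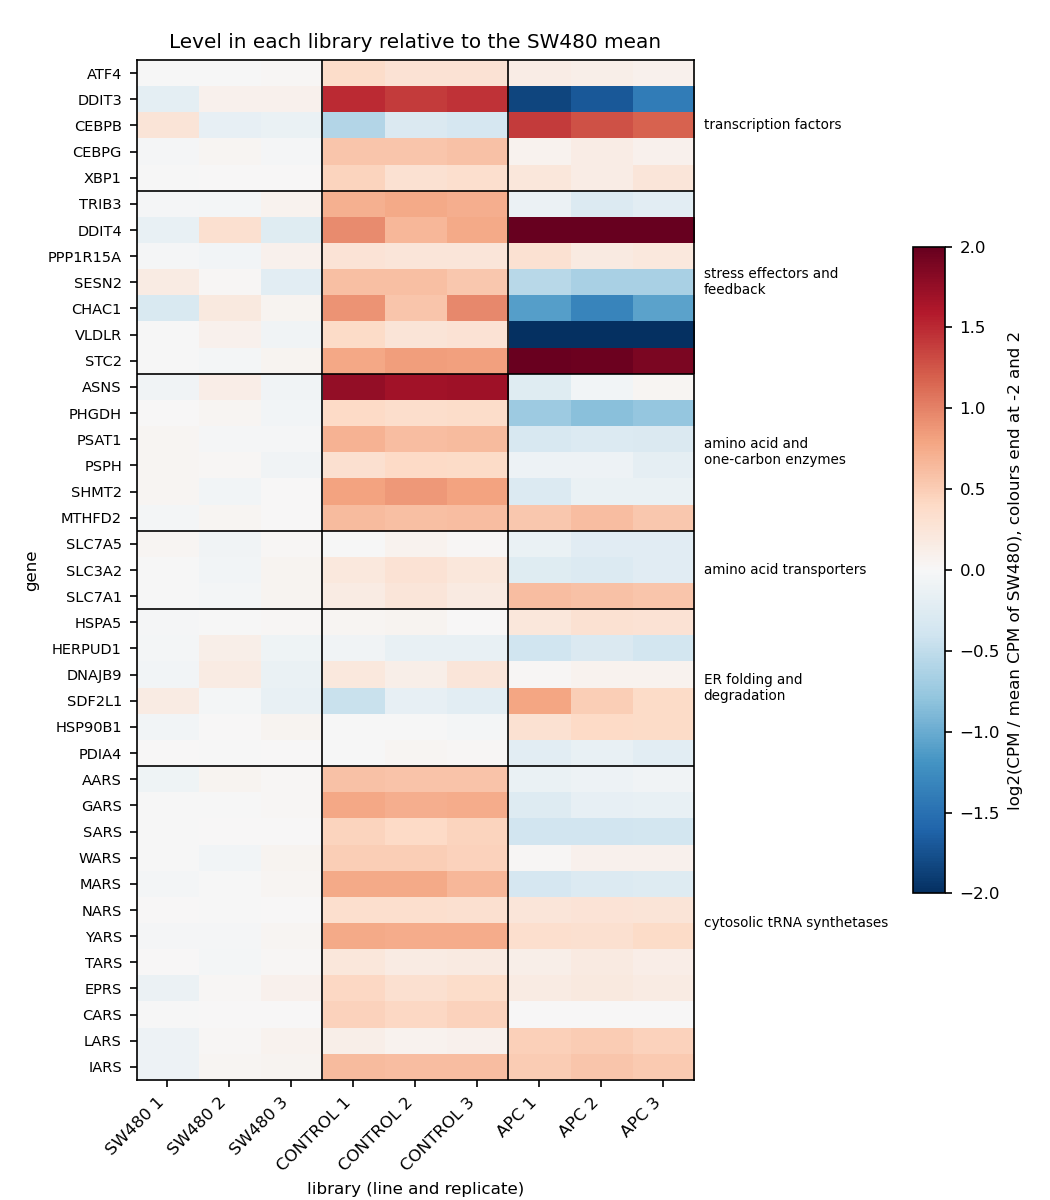
Level of each of the 39 genes (rows, grouped by role) in each of the 9 libraries (columns), as log2 of CPM over the mean CPM of the SW480 libraries; colours end at -2 and 2. The 3 CONTROL libraries lie above the other 6 in 24 genes, and DDIT4, STC2 and CEBPB stand out as highest in the APC libraries.

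The order of the 3 lines was described by which line's libraries lay wholly outside the other 6. The CONTROL libraries lay above the other 6 in 24 of the 39 genes, a pattern that 14.6% of all tested genes had, and below in 2, CEBPB and SDF2L1 (12.4%). The 24 were ATF4, DDIT3, CEBPG, XBP1, TRIB3, SESN2, CHAC1, VLDLR, ASNS, PHGDH, PSAT1, PSPH, SHMT2, SLC3A2 and 10 synthetases (AARS, GARS, SARS, WARS, MARS, NARS, YARS, EPRS, CARS and IARS). The APC libraries lay above the other 6 in 8 genes (28.3% of all genes): CEBPB, DDIT4, STC2, SLC7A1, HSPA5, SDF2L1, HSP90B1 and LARS. They lay below in 16 (28.7%). The SW480 libraries lay below the other 6 in 14 (14.4%) and above in 0 (15.9%). DNAJB9 had none of these patterns.

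Levels per length differed widely among the 39. HSP90B1, the ER paralogue of the chaperone HSP90, was the highest, with mean values of 225, 219 and 282 RPKM in SW480, CONTROL and the APC line. CHAC1 was the lowest, at 1.90, 3.29 and 0.831 RPKM in the same order. ATF4 stood at 125, 153 and 133 RPKM, DDIT3 at 12.5, 33.7 and 3.95 RPKM and ASNS at 24.7, 79.5 and 22.9 RPKM. The SD over 3 libraries was between 0.486% and 21.8% of the mean CPM, with a median of 2.99% over the 39 genes and 3 lines.

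Of the 5 transcription factors, 4 rose and 1 fell in CONTROL against SW480 (80% and 20%, against 25.3% and 24.7% of all genes). In the APC line 1 was higher and 4 were lower than in CONTROL (20% and 80%, against 34.8% and 35.4%). Compared with SW480, 4 were higher and 1 was lower in the APC line (80% and 20%, against 35.6% and 36.9%). ATF4, the central factor of the response, was measured at 281, 281 and 286 CPM in SW480, 363, 345 and 345 CPM in CONTROL and 312, 307 and 301 CPM in the APC line. The CONTROL libraries were the highest and those of the APC line lay between, with no overlap. It was 1.24-fold higher in CONTROL than in SW480 (log2 fold change 0.31 ± 0.04, adjusted p = 7.69e-09) and 1.14-fold lower in the APC line than in CONTROL (log2 fold change -0.19 ± 0.04, adjusted p = 1.45e-05). The smaller rise in the APC line over SW480 (log2 fold change 0.12 ± 0.04, adjusted p = 0.00381) was no longer called with library totals in place of TMM scaling (adjusted p = 0.0513).

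DDIT3, which encodes the pro-apoptotic factor CHOP, moved much further. It was measured at 14.4, 17.6 and 17.6 CPM in SW480, 46.7, 43.6 and 44.8 CPM in CONTROL and 4.62, 5.09 and 6.25 CPM in the APC line. The 3 lines were well separated, and the APC line was the lowest. DDIT3 was 2.73-fold higher in CONTROL than in SW480 (log2 fold change 1.45 ± 0.07, adjusted p = 2.88e-17), 8.48-fold lower in the APC line than in CONTROL (log2 fold change -3.08 ± 0.09, adjusted p = 6.74e-25) and 3.11-fold lower than in SW480 (log2 fold change -1.64 ± 0.11, adjusted p = 1.88e-15). In the RefSeq gene table DDIT3 overlaps MARS. The strand setting of the counts is not given in the sources used here, so reads from the shared stretch cannot be told apart.

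CEBPB, the C/EBP family factor that can pair with ATF4, ran the other way, at 20.9, 15.6 and 16.1 CPM in SW480, 11.7, 14.4 and 13.8 CPM in CONTROL and 46.3, 42.2 and 39.6 CPM in the APC line. The APC libraries were higher than all others and the CONTROL libraries lower than all others. CEBPB was 3.22-fold higher in APC cells than in CONTROL (log2 fold change 1.69 ± 0.10, adjusted p = 6.27e-11) and 2.44-fold above SW480 (1.29 ± 0.09 on the log2 scale). It was the single member of the 39 to fall in CONTROL against SW480 (log2 fold change -0.40 ± 0.11, adjusted p = 0.00716).

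CEBPG, a heterodimer partner of ATF4, had means of 62.3 ± 1.67, 92.3 ± 1.42 and 66.9 ± 2.04 CPM in SW480, CONTROL and the APC line. It rose 1.48-fold in CONTROL and was 1.38-fold lower in the APC line than in CONTROL (log2 fold change -0.46 ± 0.04, adjusted p = 3.09e-11). The small difference between the APC line and SW480 (log2 fold change 0.10 ± 0.05, adjusted p = 0.0441) was not called in 10 of 18 alternatives. These included the fits without SW480 replicate 1, SW480 replicate 3, CONTROL replicate 1 or APC replicate 2, and the adjusted p reached 0.265. XBP1, the factor activated by IRE1, stood at 34.1 ± 0.346, 43.9 ± 2.24 and 39.4 ± 1.29 CPM and was 1.29-fold higher in CONTROL than in SW480 (log2 fold change 0.36 ± 0.05, adjusted p = 1.13e-06). Its fall from CONTROL to the APC line (log2 fold change -0.16 ± 0.05, adjusted p = 0.0111) was not called by DESeq2 (adjusted p = 0.0606), without CONTROL replicate 1 (0.111) or without APC replicate 2 (0.0908). The counts do not separate spliced from unspliced XBP1, since the spliced RefSeq model held 95.5% to 98.6% as many reads as the unspliced one in every library.

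**Figure D2:**
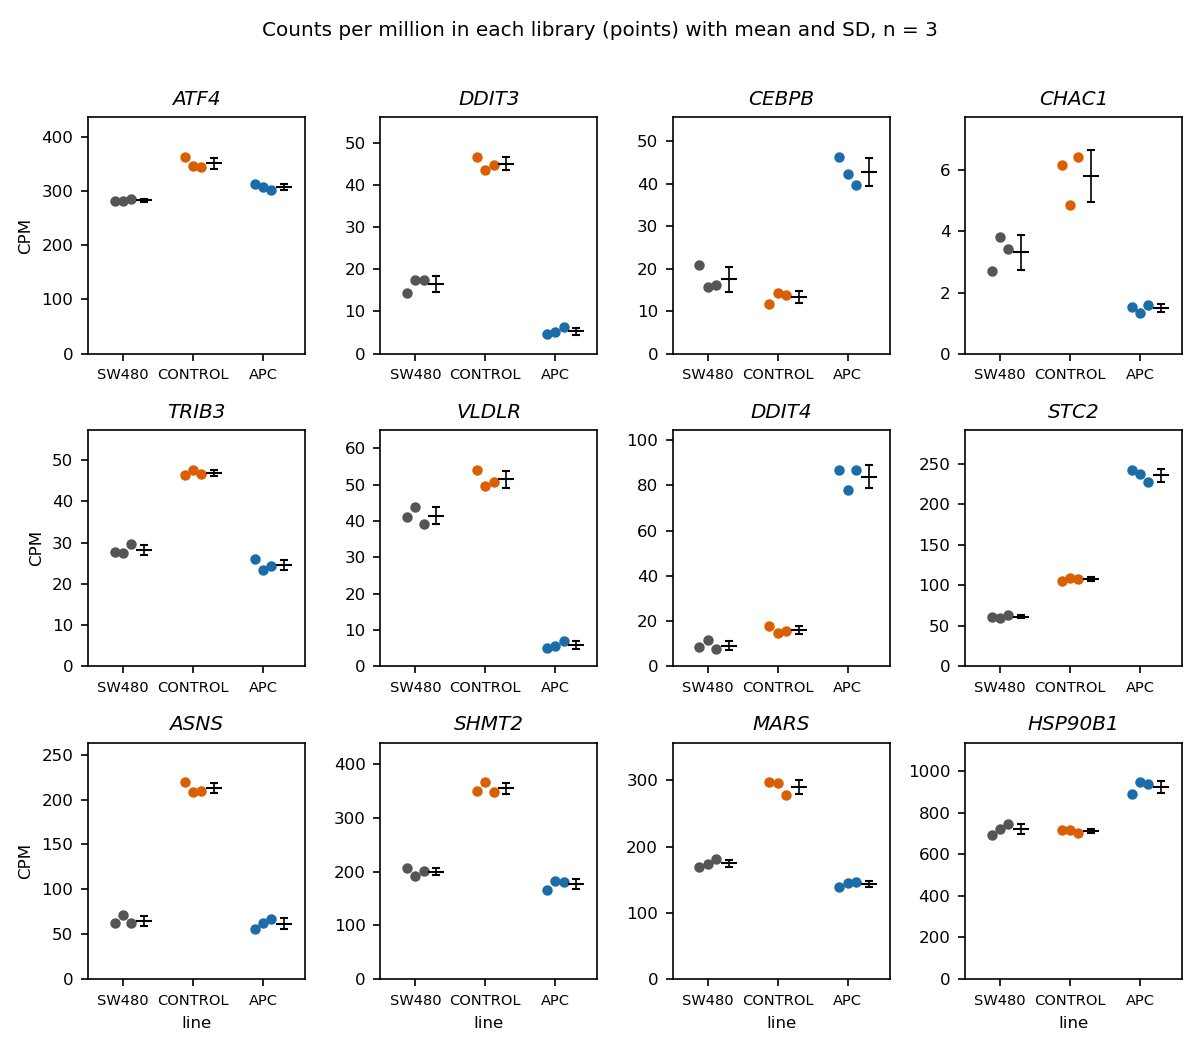
Expression of 12 of the genes in CPM (vertical axis of each panel, starting at 0), with 1 point per library and the mean ± SD of each line. ATF4, DDIT3, ASNS, SHMT2, MARS, TRIB3 and CHAC1 are highest in CONTROL, DDIT4, STC2, CEBPB and HSP90B1 are highest in the APC line, and VLDLR is near 5 to 7 CPM in the APC line.

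The stress effectors and feedback genes split. All 7 rose in CONTROL against SW480, where 25.3% of all genes did. Against CONTROL the APC line was higher in 2, lower in 4 and not called in 1. That is 28.6% higher and 57.1% lower, against 34.8% and 35.4% of all genes. In both comparisons of the APC line their log2 fold changes spanned the widest range of any role, from -3.14 to 2.38 against CONTROL and from -2.82 to 3.18 against SW480. DDIT4, which encodes REDD1, an inhibitor of mTORC1, was measured at 8.35, 11.5 and 7.79 CPM in SW480, 17.8, 14.6 and 15.6 CPM in CONTROL and 86.6, 77.8 and 87.0 CPM in the APC line. The APC libraries were all far above the others, and those of CONTROL above those of SW480. DDIT4 was 9.08-fold higher in APC cells than in SW480 (log2 fold change 3.18 ± 0.10, adjusted p = 5.45e-14) and 5.22-fold above CONTROL (log2 fold change 2.38 ± 0.09, adjusted p = 8.01e-13), and 1.74-fold higher in CONTROL than in SW480 (log2 fold change 0.80 ± 0.13, adjusted p = 7.30e-05).

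STC2, a secreted glycoprotein induced by ER stress, was measured at 61.2, 59.4 and 63.4 CPM in SW480, 105, 109 and 108 CPM in CONTROL and 243, 238 and 227 CPM in the APC line. It followed the same order with tighter libraries and no overlap. STC2 was 3.84-fold higher in APC cells than in SW480 (log2 fold change 1.94 ± 0.04, adjusted p = 2.91e-29) and 2.20-fold above CONTROL (log2 fold change 1.13 ± 0.04, adjusted p = 3.76e-23), and CONTROL exceeded SW480 by 1.75-fold (0.81 ± 0.04 on the log2 scale).

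VLDLR, the very low density lipoprotein receptor, an ATF4-linked gene, was measured at 41.2, 43.8 and 39.3 CPM in SW480, 54.1, 49.6 and 50.8 CPM in CONTROL and 5.11, 5.49 and 7.01 CPM in the APC line. The APC libraries were far below all others. VLDLR was 8.79-fold lower in the APC line than in CONTROL (log2 fold change -3.14 ± 0.08, adjusted p = 2.83e-26) and 7.06-fold lower than in SW480 (log2 fold change -2.82 ± 0.09, adjusted p = 1.22e-24), whereas CONTROL exceeded SW480 by 1.24-fold (0.31 ± 0.06 on the log2 scale). VLDLR overlaps the antisense gene VLDLR-AS1 in the RefSeq table, and without strand their reads cannot be told apart. Others of the 39 overlap protein-coding genes there, among them SHMT2 (COXFA4L2), MTHFD2 (SLC4A5) and YARS (S100PBP). ASNS, CEBPB, SLC7A5 and CARS are among those that overlap long noncoding genes. How far these overlaps touch the counts was not tested.

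TRIB3, a pseudokinase that restrains ATF4 and AKT, was measured at 27.7, 27.4 and 29.7 CPM in SW480, 46.3, 47.7 and 46.7 CPM in CONTROL and 25.9, 23.4 and 24.4 CPM in the APC line. CONTROL lay above the others and the APC line slightly below SW480, without overlap. TRIB3 was 1.66-fold higher in CONTROL than in SW480 (log2 fold change 0.73 ± 0.06, adjusted p = 8.42e-13) and 1.91-fold lower in the APC line than in CONTROL (log2 fold change -0.93 ± 0.06, adjusted p = 4.77e-16). CHAC1, which degrades glutathione, was measured at 2.69, 3.80 and 3.44 CPM in SW480, 6.18, 4.85 and 6.44 CPM in CONTROL and 1.54, 1.33 and 1.58 CPM in the APC line. Its levels were low and its libraries spread widely, yet the 3 lines did not overlap. It was 1.77-fold higher in CONTROL than in SW480 (log2 fold change 0.82 ± 0.15, adjusted p = 1.83e-05) and 3.94-fold lower in the APC line than in CONTROL (log2 fold change -1.98 ± 0.18, adjusted p = 6.65e-12).

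SESN2, sestrin 2, which restrains mTORC1 under amino acid shortage, stood at 10.1 ± 1.34, 15.1 ± 0.363 and 6.57 ± 0.259 CPM in SW480, CONTROL and the APC line. It rose 1.49-fold in CONTROL (log2 fold change 0.58 ± 0.09, adjusted p = 2.22e-06) and was 2.30-fold lower in the APC line than in CONTROL (log2 fold change -1.20 ± 0.10, adjusted p = 8.66e-13). PPP1R15A, or GADD34, directs the phosphatase that reverses eIF2 phosphorylation. It stood at 86.8 ± 4.37, 104 ± 1.40 and 102 ± 4.52 CPM, higher in CONTROL (log2 fold change 0.26 ± 0.04, adjusted p = 1.27e-05) and in the APC line (log2 fold change 0.23 ± 0.04, adjusted p = 2.42e-05) than in SW480. APC and CONTROL were not called different for PPP1R15A (log2 fold change -0.02 ± 0.04, adjusted p = 0.637).

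The 6 enzymes of amino acid and one-carbon metabolism all rose in CONTROL against SW480, where 25.3% of all genes did. Of the 6, 5 were lower in the APC line than in CONTROL (83.3%, against 35.4% of all genes). The other, MTHFD2, was not called, and 0 were higher at an unadjusted p under 0.05 in edgeR or by DESeq2 or limma. Against SW480 the APC line was lower in 4 (66.7%, against 36.9% of all genes) and higher in 1 (16.7%, against 35.6%). ASNS, asparagine synthetase, was measured at 61.9, 71.2 and 61.9 CPM in SW480, 219, 209 and 209.6 CPM in CONTROL and 55.3, 62.8 and 67.0 CPM in the APC line. CONTROL stood well above the other lines, which overlapped. ASNS was 3.27-fold higher in CONTROL than in SW480 (log2 fold change 1.71 ± 0.06, adjusted p = 1.98e-14), the largest rise of the 39 genes in that comparison, and 3.45-fold lower in the APC line than in CONTROL (log2 fold change -1.79 ± 0.06, adjusted p = 1.60e-15). The APC line and SW480 were not called different (log2 fold change -0.08 ± 0.06, adjusted p = 0.296).

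The 3 enzymes of serine synthesis kept 1 order, CONTROL above SW480 above the APC line. PHGDH, the first step, was measured at 119, 121 and 114 CPM in SW480, 156, 149.9 and 151 CPM in CONTROL and 71.1, 66.2 and 68.7 CPM in the APC line. It was 2.22-fold lower in the APC line than in CONTROL (log2 fold change -1.15 ± 0.04, adjusted p = 2.23e-22) and 1.72-fold lower than in SW480 (log2 fold change -0.78 ± 0.04, adjusted p = 1.92e-17). PSAT1, the second step, stood at 219.5 ± 5.23, 345 ± 10.3 and 179 ± 3.02 CPM and was 1.93-fold lower in the APC line than in CONTROL (log2 fold change -0.95 ± 0.04, adjusted p = 1.09e-21).

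PSPH, the last step of that pathway, stood at 57.6 ± 2.33, 74.4 ± 2.32 and 52.8 ± 1.58 CPM. It rose 1.29-fold in CONTROL and was 1.41-fold lower in the APC line than in CONTROL (log2 fold change -0.49 ± 0.05, adjusted p = 4.82e-11). Its small difference between the APC line and SW480 (adjusted p = 0.0227) was not called without SW480 replicate 1, SW480 replicate 2 or APC replicate 3, where the adjusted p reached 0.143.

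SHMT2, the mitochondrial enzyme that moves a carbon unit from serine to folate, was measured at 206, 192 and 202 CPM in SW480, 351, 366 and 348 CPM in CONTROL and 166, 183 and 182 CPM in the APC line. CONTROL was the highest and the APC line the lowest, without overlap. SHMT2 was 1.77-fold higher in CONTROL than in SW480 (log2 fold change 0.83 ± 0.04, adjusted p = 5.16e-18) and 2.01-fold lower in the APC line than in CONTROL (adjusted p = 2.12e-21). MTHFD2, which acts after SHMT2 in mitochondrial folate metabolism, did not follow it, at 157, 166 and 163 CPM in SW480, 252, 245 and 249 CPM in CONTROL and 237, 248 and 235 CPM in the APC line. Both derived lines lay above SW480, and they overlapped each other. The transcript kept for MTHFD2 was a noncoding RefSeq model, and the second model of the gene held 99.6% as many reads. MTHFD2 was 1.53-fold higher in CONTROL (log2 fold change 0.62 ± 0.04, adjusted p = 1.90e-15) and 1.48-fold higher in the APC line (log2 fold change 0.57 ± 0.04, adjusted p = 2.33e-15) than in SW480, and APC against CONTROL did not pass the test (log2 fold change -0.05 ± 0.04, adjusted p = 0.204).

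The 3 amino acid transporter genes differed in direction. SLC7A5 encodes LAT1, the exchanger for large neutral amino acids, and SLC3A2 encodes 4F2hc, the heavy chain that LAT1 needs. SLC3A2 was measured at 426, 411 and 444 CPM in SW480, 495, 522 and 497 CPM in CONTROL and 361, 352 and 366 CPM in the APC line. CONTROL was highest and the APC line lowest, without overlap. It was 1.18-fold higher in CONTROL than in SW480 (log2 fold change 0.24 ± 0.04, adjusted p = 2.20e-06) and 1.40-fold lower in the APC line than in CONTROL (log2 fold change -0.49 ± 0.04, adjusted p = 1.61e-13). SLC7A5 stood at 768 ± 28.9, 783 ± 22.8 and 672 ± 26.3 CPM. It was not called in CONTROL against SW480 (log2 fold change 0.03 ± 0.04, adjusted p = 0.583), and it was 1.16-fold lower in the APC line than in CONTROL (log2 fold change -0.22 ± 0.04, adjusted p = 7.37e-06).

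SLC7A1, the transporter of arginine and other cationic amino acids, was measured at 161, 157 and 168 CPM in SW480, 182, 192 and 184 CPM in CONTROL and 249.9, 244 and 238 CPM in the APC line. The APC line was the highest and SW480 the lowest, without overlap. SLC7A1 was 1.50-fold higher in APC cells than in SW480 (log2 fold change 0.59 ± 0.04, adjusted p = 1.14e-15) and 1.31-fold above CONTROL (log2 fold change 0.39 ± 0.04, adjusted p = 3.57e-11). It was also 1.15-fold higher in CONTROL than in SW480.

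**Figure D3:**
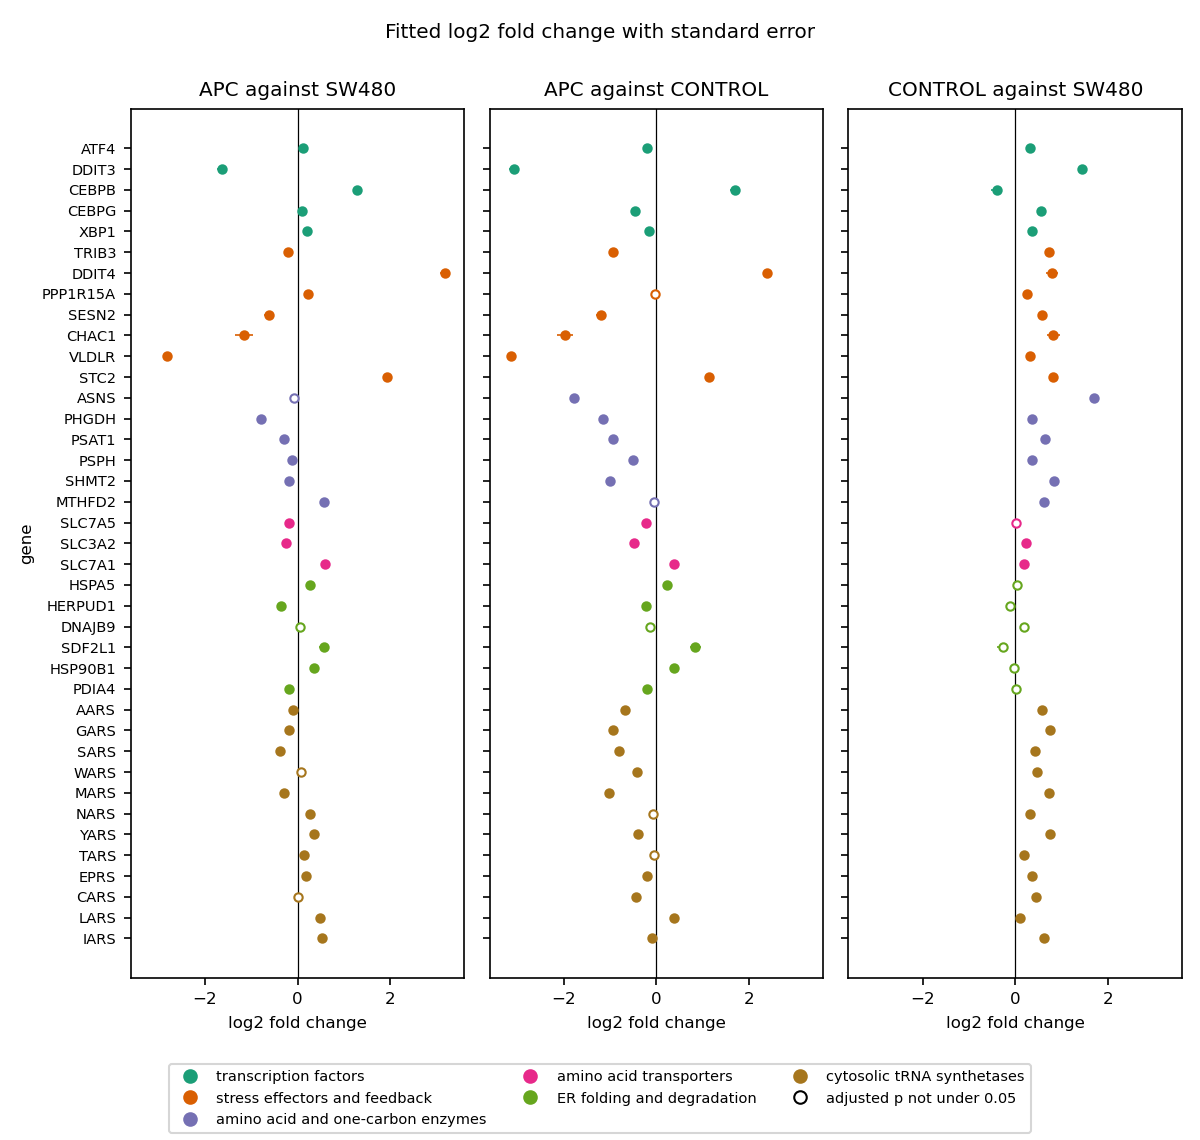
Log2 fold change ± SE from edgeR of each of the 39 genes (rows, by role) in the 3 comparisons (panels), coloured by role; open symbols did not pass the adjusted p threshold of 0.05. For CONTROL against SW480 most points lie right of 0, while the 6 ER genes lie near it, and APC against CONTROL reaches -3.14 for VLDLR and 2.38 for DDIT4.

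Of the 6 genes of ER folding and degradation, 0 rose, 0 fell and 6 were not called in CONTROL against SW480. Of all genes 50% were called there. At an unadjusted p under 0.05 edgeR gave 0 higher and 2 lower, HERPUD1 and SDF2L1, and DESeq2 and limma called 0 in either direction. In the APC line 3 were higher and 2 lower than in CONTROL, and 3 higher and 2 lower than in SW480 (50% and 33.3% in both). Of all genes, 34.8% were higher and 35.4% lower than in CONTROL, and 35.6% and 36.9% than in SW480. With 6 genes these counts are not far from those shares. HSPA5, or BiP, the main chaperone of the ER, was measured at 646, 646 and 667 CPM in SW480, 674, 675 and 659 CPM in CONTROL and 766, 805 and 797 CPM in the APC line. The APC libraries lay above all others, and those of the other lines overlapped. HSPA5 was 1.18-fold higher in APC cells than in CONTROL (log2 fold change 0.24 ± 0.04, adjusted p = 5.28e-07) and 1.21-fold above SW480 (log2 fold change 0.27 ± 0.04, adjusted p = 3.69e-08).

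HSP90B1, or GRP94, was measured at 694, 721 and 744 CPM in SW480, 717, 714 and 701 CPM in CONTROL and 890.0, 946 and 937 CPM in the APC line. The pattern was that of HSPA5, with the APC line above the other lines. It was 1.30-fold higher in APC cells than in CONTROL (log2 fold change 0.38 ± 0.04, adjusted p = 6.88e-11), while CONTROL and SW480 were not called different (log2 fold change -0.02 ± 0.04, adjusted p = 0.719). SDF2L1, a cofactor of BiP, was measured at 20.8, 18.1 and 16.6 CPM in SW480, 13.5, 16.5 and 16.1 CPM in CONTROL and 32.1, 26.0 and 24.0 CPM in the APC line. The APC libraries were the highest and those of CONTROL the lowest, without overlap. SDF2L1 was 1.79-fold higher in APC cells than in CONTROL (log2 fold change 0.84 ± 0.12, adjusted p = 1.22e-05), and its difference between CONTROL and SW480 (log2 fold change -0.27 ± 0.12, adjusted p = 0.0770) was called without SW480 replicate 3 (adjusted p = 0.0361), without APC replicate 1 (0.00768) and without APC replicate 3 (0.0261).

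Of the remaining 3 ER genes, HERPUD1 and PDIA4 were lower in the APC line and DNAJB9 was not called. HERPUD1, which helps ER-associated degradation, stood at 45.5 ± 3.23, 41.9 ± 1.30 and 35.7 ± 1.31 CPM in SW480, CONTROL and the APC line, and was 1.18-fold lower in the APC line than in CONTROL (log2 fold change -0.23 ± 0.06, adjusted p = 0.000590). Without SW480 replicate 3 it was also called lower in CONTROL than in SW480 (adjusted p = 0.0341). PDIA4, a protein disulfide isomerase, stood at 236 ± 1.35, 239.6 ± 4.45 and 207 ± 5.62 CPM and was 1.16-fold lower in the APC line than in CONTROL (log2 fold change -0.21 ± 0.04, adjusted p = 3.98e-06). DNAJB9, an XBP1-linked cochaperone of BiP, stood at 9.43 ± 1.05, 10.7 ± 0.482 and 9.80 ± 0.203 CPM and was not called in any comparison as fitted over the 9 libraries (adjusted p = 0.628 against SW480 and 0.205 against CONTROL for the APC line, and 0.0964 for CONTROL and SW480). Without SW480 replicate 2 the last of these was called (adjusted p = 0.0247).

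All 12 cytosolic aminoacyl-tRNA synthetase genes, whose products charge tRNAs with amino acids, rose in CONTROL against SW480, with a median log2 fold change of 0.46. Of all genes 25.3% rose there. Against CONTROL the APC line was lower in 9, higher in 1 (LARS) and not called in 2 (NARS and TARS), with a median of -0.40. That is 75% lower and 8.33% higher, against 35.4% and 34.8% of all genes. Against SW480 the APC line was higher in 6, lower in 4 and not called in 2 (WARS and CARS), with a median of 0.10. That is 50% higher and 33.3% lower, against 35.6% and 36.9% of all genes. MARS, the methionyl-tRNA synthetase, was measured at 169.6, 174 and 181 CPM in SW480, 297, 296 and 278 CPM in CONTROL and 139, 145 and 147 CPM in the APC line. CONTROL was highest and the APC line lowest, without overlap. MARS was 1.66-fold higher in CONTROL than in SW480 (log2 fold change 0.73 ± 0.04, adjusted p = 4.91e-17) and 2.03-fold lower in the APC line than in CONTROL (log2 fold change -1.02 ± 0.04, adjusted p = 5.59e-22).

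GARS, for glycine, was measured at 236, 235 and 240.3 CPM in SW480, 405, 391 and 394 CPM in CONTROL and 197, 212 and 214 CPM in the APC line. The order of the lines was that of MARS. GARS was 1.67-fold higher in CONTROL than in SW480 (log2 fold change 0.74 ± 0.04, adjusted p = 1.27e-17) and 1.91-fold lower in the APC line than in CONTROL (log2 fold change -0.93 ± 0.04, adjusted p = 2.13e-21). SARS, for serine, kept this order at 131 ± 1.17, 176 ± 3.66 and 101 ± 0.697 CPM, and was 1.75-fold lower in the APC line than in CONTROL (log2 fold change -0.81 ± 0.04, adjusted p = 2.13e-19). AARS, for alanine, stood at 113 ± 5.96, 168 ± 1.24 and 105 ± 2.18 CPM, and was 1.60-fold lower in the APC line than in CONTROL (log2 fold change -0.68 ± 0.04, adjusted p = 2.16e-16). Its small difference between the APC line and SW480 (adjusted p = 0.0295) was not called in 9 of 18 alternatives. These included the fits without SW480 replicate 2 (adjusted p = 0.183), SW480 replicate 3, CONTROL replicate 3, APC replicate 1 or APC replicate 2.

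A second set of synthetases was high in CONTROL and intermediate or near the parental level in the APC line. YARS, for tyrosine, was measured at 116, 116 and 120.5 CPM in SW480, 199, 196 and 196 CPM in CONTROL and 148, 147 and 153 CPM in the APC line. The APC libraries lay between those of the other lines, without overlap, 1.28-fold above SW480 and 1.32-fold below CONTROL. EPRS, for glutamate and proline, stood at 197 ± 13.4, 255 ± 8.89 and 223 ± 3.90 CPM, and was 1.14-fold lower in the APC line than in CONTROL (log2 fold change -0.20 ± 0.04, adjusted p = 0.000104). WARS, for tryptophan, stood at 127 ± 4.60, 177 ± 2.66 and 133 ± 3.17 CPM and CARS, for cysteine, at 82.2 ± 0.613, 112 ± 2.37 and 82.6 ± 0.401 CPM. Both were lower in the APC line than in CONTROL, 1.33-fold (log2 fold change -0.41 ± 0.04, adjusted p = 1.93e-11) and 1.35-fold (log2 fold change -0.44 ± 0.04, adjusted p = 1.79e-11), and neither was called between the APC line and SW480, except WARS without SW480 replicate 3 (adjusted p = 0.0428).

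The last 4 synthetases stayed near the CONTROL level in the APC line or exceeded it. IARS, for isoleucine, stood at 255 ± 14.4, 391 ± 3.46 and 368 ± 7.49 CPM, 1.53-fold higher in CONTROL than in SW480 (log2 fold change 0.62 ± 0.04, adjusted p = 5.49e-15). The slight difference between the APC line and CONTROL (adjusted p = 0.0389) was not called when any of the CONTROL or APC libraries was left out, where the adjusted p ran up to 0.157. NARS, for asparagine, stood at 89.8 ± 0.510, 112 ± 0.669 and 108 ± 1.32 CPM, and TARS, for threonine, at 198 ± 3.82, 226 ± 5.74 and 219 ± 5.91 CPM. Both rose in CONTROL (0.33 ± 0.04 and 0.19 ± 0.04 on the log2 scale) and were not called between the APC line and CONTROL (adjusted p = 0.141 and 0.239).

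LARS, for leucine, was measured at 158, 171 and 178 CPM in SW480, 184, 178 and 180.2 CPM in CONTROL and 236, 240.1 and 231 CPM in the APC line. The APC libraries were the highest, and the lowest CONTROL library lay just above the highest SW480 library. LARS was 1.40-fold higher in APC cells than in SW480 (log2 fold change 0.48 ± 0.04, adjusted p = 7.27e-13) and 1.30-fold above CONTROL (log2 fold change 0.38 ± 0.04, adjusted p = 1.66e-10). Its rise in CONTROL against SW480 (adjusted p = 0.0434) was not called in 14 of 18 alternatives. These included the fits without SW480 replicate 1 (adjusted p = 0.334), SW480 replicate 2, any CONTROL library, APC replicate 2 or APC replicate 3.

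The motif groups can be set beside these values, as a description. The 11 genes with a CARE match had a median log2 fold change of 0.44 in CONTROL against SW480 (10 higher, or 90.9%, and 0 lower). The 24 without one had 0.37 (17 higher, or 70.8%, and 1 lower). In APC against CONTROL the medians were -0.44 (1 higher, or 9.09%, and 8 lower) and -0.20 (6 higher, or 25%, and 15 lower). In APC against SW480 they were -0.08 (4 higher, or 36.4%, and 5 lower) and 0.08 (12 higher, or 50%, and 10 lower). Of all 175 tested genes with a CARE match, 55 were higher and 33 lower in CONTROL against SW480 (median 0.05), 66 and 59 in APC against CONTROL (0.02), and 76 and 49 in APC against SW480 (0.08). Of the 10983 tested genes without a match, 2855 were higher and 2734 lower in CONTROL against SW480, 3807 and 3963 in APC against CONTROL, and 3934 and 4116 in APC against SW480. In CONTROL against SW480 the percent higher was thus 31.4% with a match and 26.0% without. It was 37.7% and 34.7% in APC against CONTROL, and 43.4% and 35.8% in APC against SW480. The 175 genes include the 11 described above, 10 of which were higher in CONTROL against SW480. The shares with a match are therefore not independent of those 11 genes. DDIT3, DDIT4, TRIB3, SESN2, VLDLR and STC2 held no CARE match in the 300 bases searched.

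Other genes of the same pathways were taken from 5 lists. Over all tested genes, 25.3% were called higher and 24.7% lower in CONTROL against SW480. The shares were 34.8% and 35.4% in APC against CONTROL, and 35.6% and 36.9% in APC against SW480. The percents given with the lists are of their tested genes, higher first. Among 13 eIF2 kinases, eIF2B subunits and stress sensors, 8 were higher and 1 lower in CONTROL than in SW480 (61.5% and 7.69%, median 0.21). In APC against CONTROL 2 were higher and 7 lower (15.4% and 53.8%, median -0.09). In APC against SW480 8 were higher and 3 lower (61.5% and 23.1%, median 0.11). EIF2AK2, the kinase PKR, had means of 58.5 ± 2.47, 71.1 ± 0.609 and 90.4 ± 3.25 CPM in SW480, CONTROL and the APC line, the highest being the APC line (log2 fold change 0.34 ± 0.05, adjusted p = 3.50e-08 against CONTROL). EIF2B5, the catalytic subunit of eIF2B, stood at 75.6 ± 1.39, 70.0 ± 3.20 and 81.5 ± 3.79 CPM. EIF2AK1, the kinase HRI, stood at 391 ± 10.5, 450.3 ± 3.14 and 268 ± 10.4 CPM, lower in the APC line than in CONTROL (log2 fold change -0.75 ± 0.04, adjusted p = 1.22e-18), and ERN1, which encodes IRE1, stood at 10.2 ± 0.426, 13.8 ± 0.361 and 5.37 ± 0.328 CPM (log2 fold change -1.36 ± 0.10, adjusted p = 2.45e-14).

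Of 24 other genes linked to ATF4, 22 were tested. In CONTROL against SW480 16 were higher and 3 lower (72.7% and 13.6%, median 0.38). In APC against CONTROL 3 were higher and 19 lower (13.6% and 86.4%, median -0.78). In APC against SW480 6 were higher and 12 lower (27.3% and 54.5%, median -0.33). XPOT, the exporter of tRNA from the nucleus, had means of 168 ± 2.44, 246 ± 5.69 and 87.7 ± 2.36 CPM and was 2.81-fold lower in the APC line than in CONTROL (log2 fold change -1.49 ± 0.04, adjusted p = 7.74e-27). SLC1A5, the glutamine transporter ASCT2, stood at 1595 ± 86.0, 1659 ± 26.9 and 574 ± 22.0 CPM, low in the APC line (log2 fold change -1.53 ± 0.04, adjusted p = 2.68e-26 against CONTROL) and not called between CONTROL and SW480. JDP2 and ALDH18A1 were higher in APC cells than in CONTROL (0.36 ± 0.06 and 0.15 ± 0.04 on the log2 scale).

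Several further genes of that list were singled out after their values were seen. SLC7A11, the cystine transporter xCT, stood at 5.55 ± 0.486, 23.1 ± 0.960 and 2.90 ± 0.563 CPM in SW480, CONTROL and the APC line. It was 4.15-fold higher in CONTROL than in SW480 (log2 fold change 2.05 ± 0.09, adjusted p = 1.79e-18) and 7.92-fold lower in the APC line than in CONTROL (log2 fold change -2.98 ± 0.11, adjusted p = 1.94e-22). ALDH1L2, a mitochondrial folate enzyme, stood at 1.22 ± 0.114, 5.64 ± 0.498 and 0.759 ± 0.208 CPM, GDF15, a secreted stress cytokine, at 4.89 ± 0.559, 10.6 ± 1.45 and 4.03 ± 0.538 CPM, and PCK2, mitochondrial PEP carboxykinase, at 42.1 ± 0.351, 69.1 ± 1.75 and 23.2 ± 1.16 CPM. For these 4 genes CONTROL was the highest and the APC line the lowest mean. GDF15 was not called between the APC line and SW480 (edgeR, adjusted p = 0.0899), and those libraries overlapped. Not every gene of the list had CONTROL highest and the APC line lowest. The CONTROL libraries lay above the other 6 in 14 of the 22 tested genes (14.6% of all genes). They lay below in 1, BBC3 (12.4%). The SW480 libraries were highest in 2, SLC38A2 and KLHL24 (15.9%), and the APC libraries in 2, ALDH18A1 and JDP2 (28.3%). The APC libraries were lowest in 12 (28.7%) and the SW480 libraries in 6 (14.4%). NUPR1 was below the filter, with 11, 9 and 6 counts in CONTROL, 1, 1 and 0 in the APC line and 0 in each SW480 library, and FGF21 had 5, 2 and 2, then 1, 0 and 0, then 0 in each.

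Among 20 other ER folding and degradation genes, 6 were higher and 5 lower in CONTROL than in SW480 (30% and 25%, median 0.00). These were near the shares of all genes (25.3% and 24.7%). In APC against CONTROL 10 were higher and 8 lower (50% and 40%, median 0.10), against 34.8% and 35.4% of all genes. In APC against SW480 9 were higher and 8 lower (45% and 40%, median 0.09), against 35.6% and 36.9%. ERO1L, an ER oxidase that supports disulfide formation, stood at 42.9 ± 1.06, 49.3 ± 0.269 and 109 ± 2.01 CPM and was 2.21-fold higher in APC cells than in CONTROL (log2 fold change 1.15 ± 0.04, adjusted p = 1.01e-21). CALR, calreticulin, stood at 501 ± 10.4, 437 ± 6.60 and 659 ± 10.5 CPM, also highest in the APC line (log2 fold change 0.59 ± 0.04, adjusted p = 1.89e-16 against CONTROL). OS9, a lectin of ER-associated degradation, stood at 118 ± 10.9, 143 ± 3.74 and 87.7 ± 2.42 CPM, and DNAJC3, an inhibitor of PERK, at 39.9 ± 0.550, 57.2 ± 1.11 and 44.9 ± 2.04 CPM, both lower in the APC line than in CONTROL (-0.71 ± 0.05 and -0.35 ± 0.05 on the log2 scale).

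Of 11 other cytosolic synthetases and complex partners, 10 were tested. In CONTROL against SW480 8 were higher and 1, QARS, was lower (80% and 10%, median 0.18). In APC against CONTROL 4 were higher and 3 lower (40% and 30%, median -0.01), near the shares of all genes (34.8% and 35.4%). In APC against SW480 6 were higher and 2 lower (60% and 20%, median 0.20). QARS was singled out after its values were seen and stood at 197 ± 1.55, 148 ± 1.34 and 158 ± 2.01 CPM. FARSA and KARS were higher (0.23 ± 0.05 and 0.15 ± 0.04) and AIMP2 and DARS lower (-0.41 ± 0.05 and -0.21 ± 0.04) in the APC line than in CONTROL. Of 17 mitochondrial synthetases 16 were tested, with 5 higher and 0 lower in CONTROL against SW480 (31.25% and 0%, median 0.01). At an unadjusted p under 0.05 edgeR gave 2 lower there. DESeq2 called 0 lower, and limma 2 or 1 with a pseudocount of 1 or 0.1. In APC against CONTROL 5 were higher and 5 lower (31.25% each, median 0.02), near the shares of all genes (34.8% and 35.4%). In APC against SW480 7 were higher and 6 lower (43.75% and 37.5%, median 0.00). MARS2 and YARS2 were higher (0.45 ± 0.06 and 0.28 ± 0.05) and CARS2 and HARS2 lower (-0.74 ± 0.06 and -0.37 ± 0.05) in the APC line than in CONTROL. Whether the lists differ from each other was not tested.

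**Figure D4:**
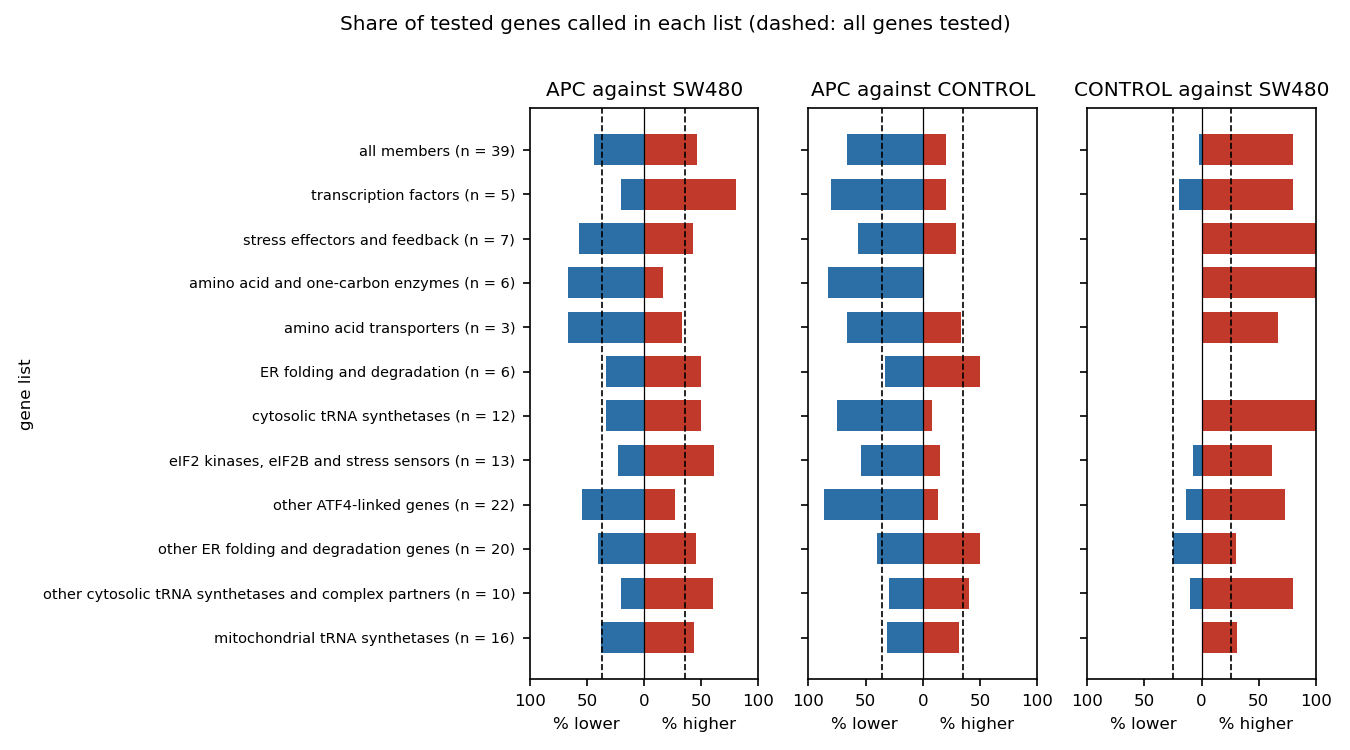
Percent of the tested genes of each role and each wider list called higher (right) or lower (left) in the 3 comparisons, with dashed lines at the percent over all 14255 tested genes. In CONTROL against SW480 all 12 synthetases of the 39 are called higher, 5 of 16 mitochondrial ones are, and no ER gene of the 39 is.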

How the data were processed

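Polyadenylated RNA libraries of SW480, CONTROL and APC cells, 3 each, were analysed. The deposited counts are whole numbers of reads per RefSeq transcript, not normalised, per the file headers. The deposited RPKM values, per the file headers, were those counts scaled by transcript length and by a library constant, which held for 100% of values (relative tolerance 0.0001). Per the submitters' processing notes, Trimmomatic, TopHat and GATK were used with hg19. For the counting tool, its strand setting and the annotation, nothing is stated in the sources used here.

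The 39276 transcripts were reduced to 20878 genes by keeping the transcript with the highest total count, after 62 of 65 names altered to dates were repaired. In R 4.3.3, edgeR 4.0.16 fitted all 9 libraries together (TMM, filterByExpr, robust quasi-likelihood), which kept 14255 genes. P-values were adjusted over these by Benjamini-Hochberg, with a threshold of 0.05. The SE was the log2 fold change divided by the square root of F. The biological coefficient of variation was 3.56%. With 3 libraries a group, the smallest two-sided p of an exact permutation test is 0.1. Alternatives were DESeq2 1.42.0, limma 3.58.1 on log2(RPKM + 1) and log2(RPKM + 0.1), other scalings, no filter, counts summed over transcripts, 6 libraries, a replicate block and each library left out. The scaling by library totals was chosen after seeing the data.

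The 39 genes, the wider lists and the tests were chosen with earlier results of these data known. All 39 are named, and of each wider list up to 2 genes per direction with the smallest adjusted p in APC against CONTROL. Promoters, named by symbol or accession in RefSeq (GRCh38.p14), were printed for at most 5 genes holding a motif, those with the largest change in their role, with up to 40 bases on either side of the match. Windows ended at the gene's start, or at the end of a match that crosses it, and a match lying past the start was given 10 bases on either side. Coordinates apply to that build and not to the hg19 counts. Of the 39 genes, 33 use the same transcript as the deposited gene-level RPKM table. One of the marker genes is not reported here.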

Additional observations from a re-analysis of the deposited data

How the results depend on the processing

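Under the 18 alternatives, 94 of the 101 gene differences called among the 117 tested (39 genes in 3 comparisons) were called every time, 7 were lost in at least 1, and 0 changed sign. The 7 were ATF4, CEBPG, PSPH and AARS in APC against SW480, XBP1 and IARS in APC against CONTROL, and LARS in CONTROL against SW480. APC against SW480 gave 16 to 18 genes higher and 15 to 17 lower, APC against CONTROL gave 8 and 24 to 26, and CONTROL exceeded SW480 in 30 to 31. Leaving out 1 library gave 17 to 18 and 15 to 17, 8 and 24 to 26, and 30 to 31. The count lower in CONTROL than in SW480 was 1 and became 2 without the filter, with 6 libraries and with the replicate block, and 3 with library totals without TMM, through SDF2L1 and HERPUD1. Leaving out 1 library gave 1 to 3, with 3 without SW480 replicate 3 and 2 without APC replicate 1 or APC replicate 3. The cause was not tested. The median log2 fold change of all genes shifted to at most -0.06, under library totals.

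Of 16 differences that were not called, 7 changed sign under some alternative, and 4 were called in at least 1. With 1 library left out, the log2 fold change in APC against SW480 ran from -0.13 to 0.0014 for ASNS, the last without APC replicate 1, and from -0.0069, without SW480 replicate 3, to 0.15 for DNAJB9. CARS was -0.024 and -0.025 with limma at a pseudocount of 1 and 0.1 and -0.038 with library totals. In APC against CONTROL, PPP1R15A ran from -0.058 to 0.014, the last without APC replicate 2. In CONTROL against SW480, SLC7A5 was -0.0070 with library totals and ran from -0.0029, without SW480 replicate 2, to 0.046, and HSP90B1 ran from -0.045 to 0.0067, the last without SW480 replicate 3. PDIA4 was -0.00082 and -0.00083 with limma at those pseudocounts and -0.015 with library totals. WARS in APC against SW480 was called without SW480 replicate 3 (adjusted p = 0.0428).

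No shared effect of the replicate number was seen in the values. Deviations of same-numbered libraries from their group means correlated at -0.0686 to 0.106 (9 pairs), and those of other pairs at -0.0942 to 0.0678 (18 pairs). Such values cannot show whether same-numbered plates were handled together. With the replicate block the counts were 17 higher and 17 lower (APC against SW480), 8 and 26 (APC against CONTROL) and 30 and 2 (CONTROL against SW480). Depth limits CHAC1, at 1.33 to 6.44 CPM the lowest of the 39 genes, most.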
